A study of Mus musculus with 6 samples.

Results

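Chemokine receptors are the cell-surface proteins through which leukocytes, microglia and vascular cells read chemokine gradients. The 9 genes described here are *Ccr1*, *Ccr2*, *Ccr7*, *Cxcr3*, *Cxcr4*, *Cxcr5*, *Cxcr6*, *Cx3cr1* and *Ackr3*, chosen by symbol from the 46078 Ensembl genes counted in each library. Bulk RNA-Seq compared 3 infarcts with 3 cortices from the contralateral hemisphere, to ask how transcription in a chronic stroke infarct differs from that of matching tissue on the other side. All libraries came from wild-type C57BL/6J mice, with an age of 3 months and a time point of 7 weeks in the labels, and per the methods the mice were male. Stroke was made by permanent electrocoagulation of the distal middle cerebral artery followed by a period of hypoxia. The tissue was dissected by eye, so an infarct library holds every cell type present in the lesion, and the contralateral cortex came from brains with a stroke and not from sham-operated mice. The labels give no treatment for these mice and do not say whether an infarct and a contralateral cortex with the same number came from 1 animal, so the p-values measure only the spread between these samples.

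Most chemokine receptors couple to inhibitory G proteins of the Gi class, which lower cyclic AMP and drive actin-based movement up a chemokine gradient. Leukocyte classes carry overlapping sets of them. Ccr1 and Ccr2 are found on monocytes and macrophages, and Cx3cr1 on microglia and other myeloid cells. Ccr7 is found on naive lymphocytes and migrating dendritic cells. Cxcr3 and Cxcr6 are found on activated T cells and natural killer cells, and Cxcr5 on B cells and follicular helper T cells. Cxcr4 is found on nearly all leukocytes and shares its ligand, Cxcl12, with Ackr3, an atypical receptor that takes up the chemokine without G protein signaling.

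Counts on genes ranged from 12146959 to 13427057 in infarcts and from 11943570 to 19933962 in contralateral cortices. Values are given as counts and as counts per 1000000 library counts (CPM) after scaling by the trimmed mean of M values (TMM). Calls rest on the quasi-likelihood test of edgeR, adjusted by the Benjamini-Hochberg method over the 15554 genes that passed a filter on low counts. They required an adjusted *p* below 0.05 together with a log2 fold change above 1 (upregulated) or below -1 (downregulated). All 9 receptors passed the filter, and 9 of 9 were upregulated in infarcts, beside 25.7% of all tested genes. Only *Ackr3* and *Cx3cr1* had at least 10 counts in every library. Each of the others had fewer in at least 1 contralateral library and passed the filter through the infarcts, where it is high. A call of downregulated was thus hardly open to these receptors, which limits what a count of 9 of 9 can show. In 9 of 9 every infarct library lay above every contralateral library, which held for 37.6% of all tested genes (72.3% had no overlap in either direction). The log2 fold changes ran from 1.59 for *Cx3cr1* to 7.14 for *Ccr2*. Their median was 5.17, and 4.58 once the 3 genes with no more than 3 counts in any contralateral library were set to the fold over a floor of 3 counts per library. Among all tested genes the median log2 fold change was 0.03. In bulk tissue, a change in the number of cells of a type and a change in the RNA per cell cannot be told apart.

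**Figure D1:**
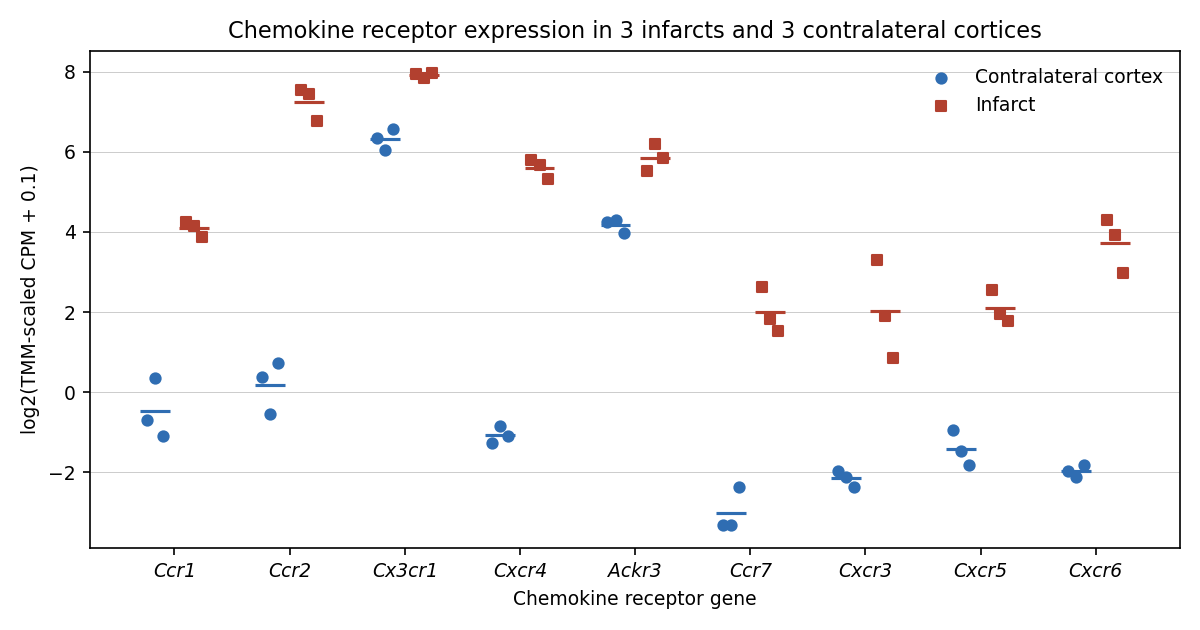
Expression of the 9 chemokine receptor genes in each library, as log2 of TMM-scaled CPM plus 0.1, with contralateral cortices as blue circles, infarcts as red squares and bars at the group means. Each infarct library sits above each contralateral library for all 9 genes, with the narrowest gaps in *Cx3cr1* and *Ackr3*, whose contralateral libraries are above 15 CPM.

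Of the receptors of monocytes and macrophages, *Ccr2* had a larger log2 fold change than *Ccr1*. *Ccr1* was below the median of the 9 fitted values. It was itself the median, at 4.58, once the genes with few contralateral counts were set to the fold over the floor. *Ccr2* (ENSMUSG00000049103, GRCm38 chr9:124101950-124113557, plus strand), the receptor through which Ccl2 draws inflammatory monocytes out of bone marrow, had 2332, 2352 and 1591 counts in infarcts 1, 2 and 3, against 23, 9 and 17 in contralateral cortices 1, 2 and 3, an order kept throughout. In CPM these were 185, 172 and 108 against 1.20, 0.585 and 1.57. All 3 infarcts stood far above the contralateral range, with infarct 3 the lowest of them. The mean was 155 ± 41.2 CPM in infarcts against 1.12 ± 0.496 CPM in contralateral cortices (SD, n = 3 each), a log2 fold change of 7.14 (SE 0.36, edgeR adjusted *p* = 5.48e-07). Only 1.61% of tested genes had a larger log2 fold change than *Ccr2*.

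*Ccr1* (ENSMUSG00000025804, chr9:123962124-123968692, minus strand), a receptor for Ccl3, Ccl5 and related chemokines on monocytes, macrophages and neutrophils, had infarct counts of 238, 240 and 213, against 10, 18 and 4 in contralateral cortices. The CPM values were 18.9, 17.6 and 14.5 against 0.521, 1.17 and 0.368. The infarcts were close to each other, while contralateral cortex 2 was higher than the other two. The regions did not overlap, and the log2 fold change was 4.58 (SE 0.35, edgeR adjusted *p* = 3.34e-06). Without contralateral cortex 2 it was 5.17.

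*Cx3cr1* (ENSMUSG00000052336, chr9:119901616-120069879, minus strand), the receptor by which microglia sense the neuronal chemokine Cx3cl1, was the receptor with the highest counts in both regions. It had infarct counts of 3118, 3154 and 3649, against 1560, 1023 and 1024 in contralateral cortices. In CPM these were 248, 231 and 249 against 81.3, 66.5 and 94.3, so the infarcts were the least variable of all 9 receptors (coefficient of variation 4.07%). *Cx3cr1* rose by 1.59 on the log2 scale (SE 0.16, edgeR adjusted *p* = 2.00e-05), and 19.1% of tested genes had a larger log2 fold change.

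*Ccr2* and *Cx3cr1* were also compared within each library, where no scaling between libraries is needed. Bulk counts do not show which cells held either transcript, so their ratio does not set monocytes against microglia. The log2 ratio of *Ccr2* to *Cx3cr1* counts, with 0.5 added to each, was -0.42, -0.42 and -1.20 in infarcts and -6.05, -6.75 and -5.87 in contralateral cortices. In infarcts *Ccr2* counts thus came within a small factor of *Cx3cr1* counts. The means were -0.68 ± 0.45 and -6.23 ± 0.46 (SD, n = 3 each), a difference of 5.55. An exact two-sided permutation test gave *p* = 0.1, the smallest that 3 against 3 libraries allow.

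*Cxcr4* and *Ackr3*, the receptors of Cxcl12, differed in how much was already present in contralateral cortex. *Cxcr4* (ENSMUSG00000045382, chr1:128588199-128592293, minus strand), the signaling receptor, had infarct counts of 696, 699 and 584, against 6, 7 and 4 in contralateral cortices. These were 55.3, 51.2 and 39.8 CPM against 0.313, 0.455 and 0.368 CPM. Contralateral cortices were thus near the limit of detection, and the infarcts lay close together. *Cxcr4* rose by 6.99 on the log2 scale (SE 0.27, edgeR adjusted *p* = 1.64e-07), which placed it at rank 26 of 15554 genes by *p*, ahead of the 8 other receptors described here.

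*Ackr3* (ENSMUSG00000044337, chr1:90203980-90216751, plus strand), the scavenging receptor, had infarct counts of 580, 1004 and 837, against 362, 300 and 168 in contralateral cortices. In CPM these were 46.1, 73.6 and 57.0 against 18.9, 19.5 and 15.5. Infarct 1 was the lowest infarct for *Ackr3*, and the regions did not overlap. On the log2 scale *Ackr3* rose by 1.71 (SE 0.20, edgeR adjusted *p* = 5.58e-05). The log2 ratio of *Cxcr4* to *Ackr3* counts was 0.26, -0.52 and -0.52 in infarcts and -5.80, -5.32 and -5.23 in contralateral cortices. The means differed by 5.19 (exact permutation test, two-sided, *p* = 0.1, the smallest allowed), so the 2 receptors had counts of the same order in infarcts, while *Ackr3* prevailed in contralateral cortex.

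The 250 bases before the annotated start are shown for *Cxcr4* and *Ackr3* because these receptors share a ligand and chromosome and rose by unlike amounts, and for *Ccr1* as a myeloid receptor on chromosome 9. The sequences are from RefSeq on GRCm38.p6, read 5′ to 3′ on the strand of the gene. Capitals mark the motifs searched: TATAAA (the TATA box), GGGCGG (the GC box bound by Sp1), GAGGAAGT (bound by PU.1), TGTGGT (the core bound by Runx factors) and ACGTG (the core of the hypoxia response element), on either strand.
*Cxcr4* promoter, chr1:128592300-128592549, minus strand: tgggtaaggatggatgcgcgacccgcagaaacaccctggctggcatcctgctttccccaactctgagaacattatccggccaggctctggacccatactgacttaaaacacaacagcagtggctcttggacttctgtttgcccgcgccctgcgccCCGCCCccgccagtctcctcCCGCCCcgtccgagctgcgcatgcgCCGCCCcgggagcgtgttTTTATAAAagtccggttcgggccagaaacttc
*Ackr3* promoter, chr1:90203730-90203979, plus strand: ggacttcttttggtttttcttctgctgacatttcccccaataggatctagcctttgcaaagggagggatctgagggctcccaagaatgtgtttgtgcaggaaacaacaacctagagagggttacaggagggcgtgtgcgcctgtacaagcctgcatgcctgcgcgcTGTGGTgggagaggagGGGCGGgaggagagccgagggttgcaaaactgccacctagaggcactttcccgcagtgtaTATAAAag
*Ccr1* promoter, chr9:123968693-123968942, minus strand: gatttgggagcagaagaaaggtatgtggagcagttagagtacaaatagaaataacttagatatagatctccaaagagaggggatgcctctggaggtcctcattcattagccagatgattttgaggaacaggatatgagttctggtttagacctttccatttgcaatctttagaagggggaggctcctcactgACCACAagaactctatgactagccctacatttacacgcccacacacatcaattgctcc

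Promoter entries were matched for 7 of the 9 receptors, all but *Ccr7* and *Cxcr5*. TATAAA and GGGCGG were each found in 2 of the 7, *Cxcr4* and *Ackr3* in both cases, and they occur in 12.4% and 32.7% of the 32851 promoters in the table. In *Cxcr4* the TATAAA lay from 30 to 25 bases before the start and overlapped its own reverse complement. Upstream of it were 3 copies of the reverse complement of GGGCGG. In *Ackr3* the TATAAA lay from 8 to 3 bases before the start and the GGGCGG from 68 to 63 bases before it. TGTGGT was found in 5 of the 7 (*Ccr1*, *Cxcr3*, *Cxcr6*, *Ackr3* and *Cx3cr1*), against 14.0% of all promoters. Annotated exons of the gene itself cover all 250 bases of the *Cx3cr1* window, 233 of *Ccr2*, 122 of *Cxcr3* and 2 of *Cxcr6*. These windows are not shown, and the matches in *Cx3cr1* and *Cxcr3* lie in annotated exon. GAGGAAGT occurred in *Cxcr3* alone among the 7 and in 2.44% of all promoters. ACGTG occurred in none of the 7 and in 16.6% of all promoters. The GC content was 61.2% in *Cxcr4*, 54.0% in *Ackr3* and 43.6% in *Ccr1*. These matches describe the letters in the windows and are no measurement of binding.

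The 4 receptors of lymphocytes and dendritic cells had few or no counts in contralateral cortex. *Cxcr6* (ENSMUSG00000048521, chr9:123806475-123811760, plus strand), the Cxcl16 receptor of tissue-resident T cells and natural killer T cells, had infarct counts of 246, 207 and 114, against 3, 2 and 2 in contralateral cortices. The infarcts were at 19.6, 15.2 and 7.77 CPM, and every contralateral library was below 0.2 CPM. The pooled ratio of infarcts to contralateral cortices was 90.0 (95% counting interval 43.4 to 225), and the fold over a floor of 3 counts per contralateral library was 67.7. The fitted log2 fold change was 6.44 (SE 0.49, edgeR adjusted *p* = 3.20e-06). Where counts are this low, the fitted value depends on the prior count, and the intervals here cover counting error only.

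*Ccr7* (ENSMUSG00000037944, chr11:99144196-99155077, minus strand), which guides naive lymphocytes and mature dendritic cells along Ccl19 and Ccl21, had 77, 47 and 41 counts in infarcts. The contralateral cortices had 0, 0 and 1 counts. The infarcts were at 6.12, 3.45 and 2.79 CPM, with infarct 1 the highest. The pooled ratio was 183 (95% counting interval 32.4 to 7281), and the fold over the floor was 19.7. The fitted log2 fold change was 7.05 (SE 0.78, edgeR adjusted *p* = 3.59e-05). It was 8.96 without contralateral cortex 3, the one with a count, and 6.41 without contralateral cortex 1.

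*Cxcr3* (ENSMUSG00000050232, chrX:101731535-101734269, minus strand), the receptor of effector T cells for Cxcl9 and Cxcl10, varied most among infarcts. It had infarct counts of 123, 50 and 25, against 3, 2 and 1 in contralateral cortices. The infarcts were at 9.78, 3.66 and 1.70 CPM, a 5.74-fold spread from lowest to highest, and still did not overlap the contralateral cortices. The pooled ratio was 36.6 (95% counting interval 16.5 to 101), and the fold over the floor was 24.1, or 12.8 without infarct 1. The fitted log2 fold change was 5.17 (SE 0.81, edgeR adjusted *p* = 4.45e-04), and 4.28 without infarct 1.

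*Cxcr5* (ENSMUSG00000047880, chr9:44511787-44561877, minus strand), the Cxcl13 receptor that brings B cells into follicles, had infarct counts of 73, 51 and 49, against 8, 4 and 2 in contralateral cortices. These were 5.80, 3.74 and 3.34 CPM against 0.417, 0.260 and 0.184 CPM. Infarct 1 was again the highest and the regions did not overlap. The log2 fold change was 3.79 (SE 0.44, edgeR adjusted *p* = 5.12e-05). The annotation places *Bcl9l* on the other strand over 3.3% of the exon bases of *Cxcr5*, and the strand setting of the counting is not given in the sources used here.

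Levels can be compared between genes once counts are divided by exon length. On the scale of CPM per kilobase of annotated exon, *Cx3cr1* was highest in infarcts at 53.8 ± 2.19, followed by *Cxcr4* at 27.0 ± 4.46, *Ccr2* at 23.0 ± 6.10 and *Ackr3* at 17.6 ± 4.13 (SD, n = 3 each). The infarct ranges of *Cxcr4*, *Ccr2* and *Ackr3* overlapped from neighbor to neighbor in this order. Below them came *Cxcr6* at 7.34 ± 3.09 and *Ccr1* at 6.00 ± 0.799, whose ranges overlapped, then *Cxcr3* at 2.92 ± 2.43, *Ccr7* at 2.08 ± 0.892 and *Cxcr5* at 1.29 ± 0.397, each overlapping its neighbor. In contralateral cortex only *Cx3cr1* at 17.9 ± 3.09 and *Ackr3* at 5.36 ± 0.647 stood above 1 on this scale, and the 7 others lay between 0.0155 for *Ccr7* and 0.242 for *Ccr1*.

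Summed over the 9 receptors, the level per kilobase was 154, 146 and 123 in infarcts and 24.5, 21.6 and 26.4 in contralateral cortices, a 5.84-fold difference of the means. *Cx3cr1* made up 35.7%, 35.1% and 44.9% of this sum in infarcts and 73.6%, 68.5% and 79.4% in contralateral cortices. Its share was thus lower in every infarct although its own level was higher. The mean share was 38.6 ± 5.51% against 73.8 ± 5.46%, a difference of -35.2 percentage points (exact permutation test, two-sided, *p* = 0.1, the smallest allowed). *Cxcr4* took 19.1 ± 1.01% of the sum in infarcts and 0.882% in contralateral cortices, and *Ccr2* took 16.1 ± 2.64% and 0.668%.

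**Figure D2:**
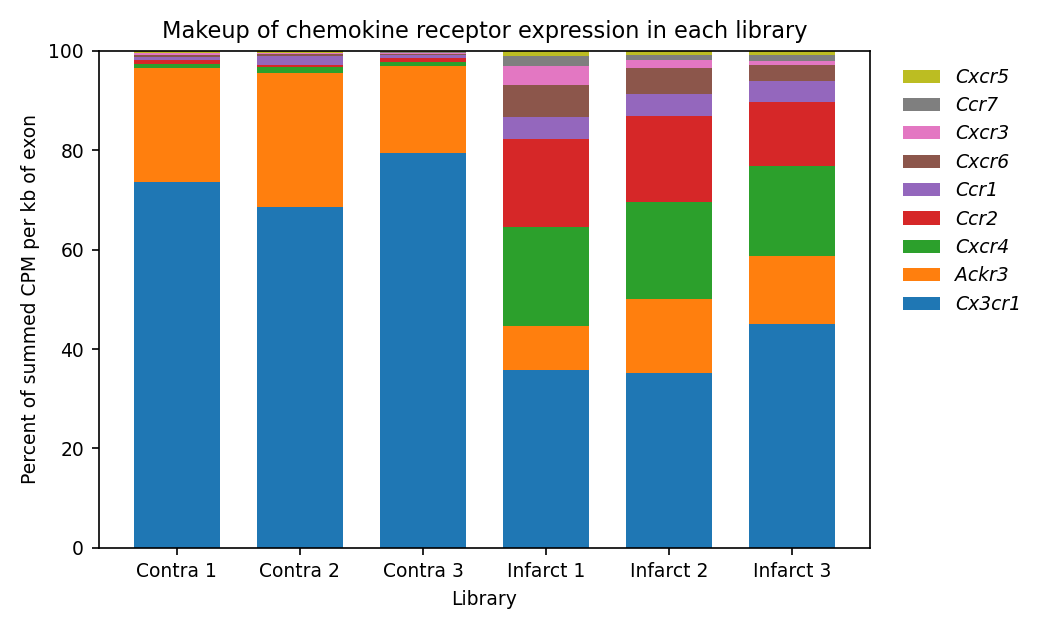
Share of each receptor in the summed CPM per kilobase of exon of the 9 receptors, in percent, for each of the 6 libraries as stacked bars. *Cx3cr1* and *Ackr3* fill most of the contralateral bars, while *Cxcr4*, *Ccr2*, *Cxcr6* and *Ccr1* take visible shares in infarcts.

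For comparison, 14 other chemokine receptors of the mouse were listed, and 9 of them passed the filter. Of these, 7 were upregulated (25.7% of all tested genes), 1 was downregulated (20.9% of all tested genes) and 1 was not called. The median log2 fold change was 4.03 (3.49 with 5 genes at the fold over the floor). Only 2 of the 9, *Ackr1* and *Ackr2*, had at least 10 counts in every library. Each of the 7 upregulated had fewer in a contralateral library and passed the filter through the infarcts. A call of downregulated was thus hardly open to them. *Ccrl2*, an atypical receptor that presents chemerin, rose by a log2 fold change of 3.89 (SE 0.37, edgeR adjusted *p* = 1.23e-05).

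*Cxcr1* and *Cxcr2*, the receptors of neutrophils for Cxcl chemokines, were upregulated from 0, 0 and 0 counts and from 0, 0 and 1 counts in contralateral cortices. *Cxcr1* had 36, 23 and 35 counts in infarcts, which made it at least 11.0-fold higher against a floor of 3 counts per library (edgeR adjusted *p* = 1.13e-04). *Cxcr2* had 69, 43 and 39 counts in infarcts (edgeR adjusted *p* = 3.95e-05). *Xcr1*, the receptor of cross-presenting dendritic cells, had infarct counts of 100, 99 and 45, against 0, 1 and 0 in contralateral cortices (edgeR adjusted *p* = 1.90e-05). *Ccr6*, which marks B cells and Th17 cells, had 97, 80 and 47 counts against 2, 1 and 0 (edgeR adjusted *p* = 1.92e-05). All 4 thus had at most 2 counts in any contralateral library.

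*Ccr3*, the eotaxin receptor of eosinophils, rose by a fitted log2 fold change of 4.03 (SE 0.80, edgeR adjusted *p* = 0.00154), with a contralateral maximum of 3 counts. The value was 3.29 without contralateral cortex 1. *Ccr9*, a gut-homing receptor, rose by 2.19 (SE 0.56, edgeR adjusted *p* = 0.00635), although other genes cover 19.0% of its exon bases on the opposite strand and 19.3% of its 75-base windows occur in other genes. *Ackr1*, the chemokine-binding Duffy antigen of venules, went the other way, with 8.51, 6.01 and 12.4 CPM in infarcts against 40.0, 42.6 and 37.6 CPM on the contralateral side. The log2 fold change was -2.16 (SE 0.25, edgeR adjusted *p* = 4.70e-05), but *Cadm3* overlaps 25.7% of its exon bases on the same strand and the value is uncertain for that reason. *Ackr2*, a scavenger of inflammatory CC chemokines, had a log2 fold change of -0.41 (SE 0.38) and was not called (edgeR adjusted *p* = 0.375). The untested receptors were *Ccr4*, *Ccr8*, *Ccr10*, *Ccr1l1* and *Ackr4*. Of them *Ccr4*, a receptor of Th2 and regulatory T cells, had infarct counts of 30, 16 and 6, against 0 in each contralateral library.

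**Figure D3:**
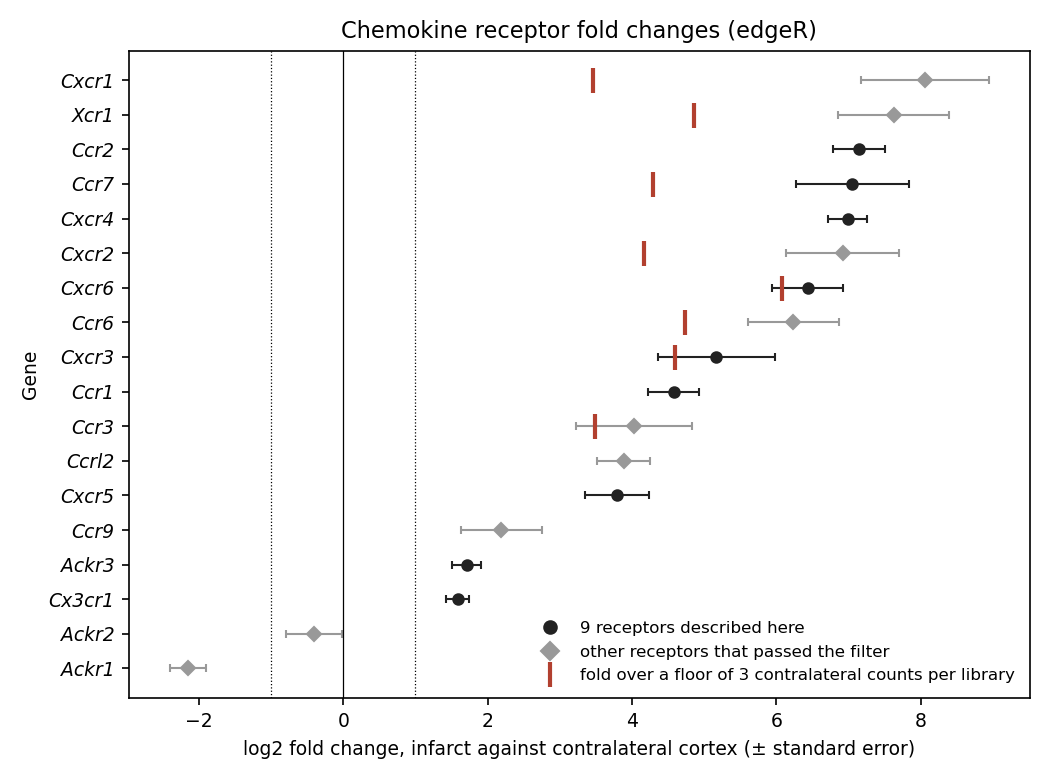
Log2 fold changes of the 9 receptors described here and 9 other chemokine receptor genes that passed the filter, infarct against contralateral cortex, with bars of 1 standard error from edgeR, black circles for the former and gray diamonds for the latter. Red ticks give the fold over a floor of 3 counts per contralateral library where no contralateral library exceeded it, dotted lines mark a log2 fold change of 1 in either direction, and only *Ackr1* lies beyond the lower one.

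Several of these genes lie together in a cluster on chromosome 9. Between the start of *Cxcr6* at 123806475 and the end of *Ccr2* at 124113557, a span of 307 kb, the annotation holds 6 chemokine receptor genes: *Cxcr6*, *Xcr1*, *Ccr1*, *Ccr1l1*, *Ccr3* and *Ccr2*. The 5 that passed the filter were all upregulated, beside 25.7% of all tested genes. Each of these 5 had fewer than 10 counts in a contralateral library and passed the filter through the infarcts. A call of downregulated was thus hardly open to them, which limits what a count of 5 of 5 can show. *Fyco1*, a vesicle transport gene on the other strand whose span contains *Cxcr6*, had infarct counts of 538, 762 and 749, against 1015, 737 and 367 in contralateral cortices. Its log2 fold change of 0.15 was not called (edgeR adjusted *p* = 0.517). Of the 75-base windows of *Ccr2* exons, 1.16% also occur in another gene, so few of its reads could be ambiguous. *Ccr1*, *Ccr7*, *Cxcr3*, *Cxcr4*, *Cxcr6* and *Ackr3* shared no window with another gene.

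Ligands were taken from a list of 16 chemokines by receptor, of which 15 passed the filter. Of these, 14 were upregulated (25.7% of all tested genes) and 1 was downregulated (20.9% of all tested genes). The median log2 fold change was 6.44 (5.95 with 7 genes at the fold over the floor). Only 5 of the 15 had at least 10 counts in every library. The others passed the filter through the infarcts, so they could hardly be called downregulated. The 3 listed ligands of *Ccr2* were upregulated. *Ccl2*, the main monocyte attractant, was at 14.5, 15.5 and 13.4 CPM in infarcts against 0.104, 0.260 and 0 CPM in contralateral cortices (log2 fold change 6.69, SE 0.44, edgeR adjusted *p* = 1.16e-06). Leaving out contralateral cortex 2 raised its log2 fold change to 7.59. *Ccl7* had 185, 235 and 231 counts against 3, 0 and 0 (edgeR adjusted *p* = 1.01e-06), and *Ccl12* had 26, 12 and 17 against 3, 0 and 0 (edgeR adjusted *p* = 0.00139). Among the *Ccr1* ligands, *Ccl6* was the highest, at 279 ± 65.7 CPM in infarcts against 2.42 CPM in contralateral cortices (SD, n = 3 each, log2 fold change 6.89, edgeR adjusted *p* = 4.20e-07). The other *Ccr1* ligands *Ccl9*, *Ccl5* and *Ccl3* rose by 5.95, 6.16 and 4.96 on the log2 scale (edgeR adjusted *p* of 2.93e-07, 1.22e-05 and 2.44e-05), the last by 5.65 without contralateral cortex 1.

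*Cx3cl1*, the membrane-bound chemokine of neurons and the only listed ligand of *Cx3cr1*, fell. It was at 151, 111 and 161 CPM in infarcts against 472, 508 and 585 CPM in contralateral cortices, with no overlap. The log2 fold change was -1.89 (SE 0.19, edgeR adjusted *p* = 1.61e-05), opposite in sign to that of its receptor. Markers of neurons moved with it: all 5 listed were downregulated (20.9% of all tested genes). Their summed level was 428 to 1134 CPM in infarcts against 6675 to 7742 CPM in contralateral cortices. Their part in the result was not tested.

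*Cxcl12*, the stromal ligand of *Cxcr4* and *Ackr3*, was the most abundant listed ligand in infarcts, at 1254, 693 and 634 CPM against 158, 151 and 145 CPM. Infarct 1 was the highest by far, and the contralateral cortices were nearly equal. The log2 fold change was 2.51 (SE 0.26, edgeR adjusted *p* = 2.84e-05), which lay between those of its 2 receptors. *Cxcl16*, the scavenger receptor and ligand of *Cxcr6*, was at 132, 103 and 89.8 CPM in infarcts against 1.04, 0.975 and 1.84 CPM in contralateral cortices (log2 fold change 6.44, SE 0.28, edgeR adjusted *p* = 1.81e-07). *Zmynd15* covers 18.3% of its exon bases on the other strand.

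The listed ligands of *Cxcr5*, *Cxcr3* and *Ccr7* had at most 7 counts in any contralateral library. *Cxcl13*, the B cell attractant, had infarct counts of 1444, 704 and 481, against 0, 3 and 3 in contralateral cortices, a pooled ratio of 487 (95% counting interval 223 to 1327, edgeR adjusted *p* = 7.58e-05). The fold over the floor was 317, or 202 without infarct 1. *Cxcl9*, an interferon-gamma target, had infarct counts of 499, 147 and 177, against 0 in each contralateral library. This made it at least 99.6-fold higher, or at least 54.6-fold without infarct 1 (edgeR adjusted *p* = 0.00173, and 0.0556 with no filter on low counts, which ended the call). *Cxcl10*, also an interferon target, had 202, 149 and 211 counts against 0, 0 and 0, at least 65.9-fold higher (edgeR adjusted *p* = 2.54e-06). The *Ccr7* ligands were lower: *Ccl21a* had 108, 34 and 57 counts against 0, 0 and 2 (edgeR adjusted *p* = 1.97e-04), and *Ccl19* had 39, 27 and 13 against 2, 7 and 2 (edgeR adjusted *p* = 0.00310). *Cxcl11* had at most 3 counts in any library and was not tested.

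**Figure D4:**
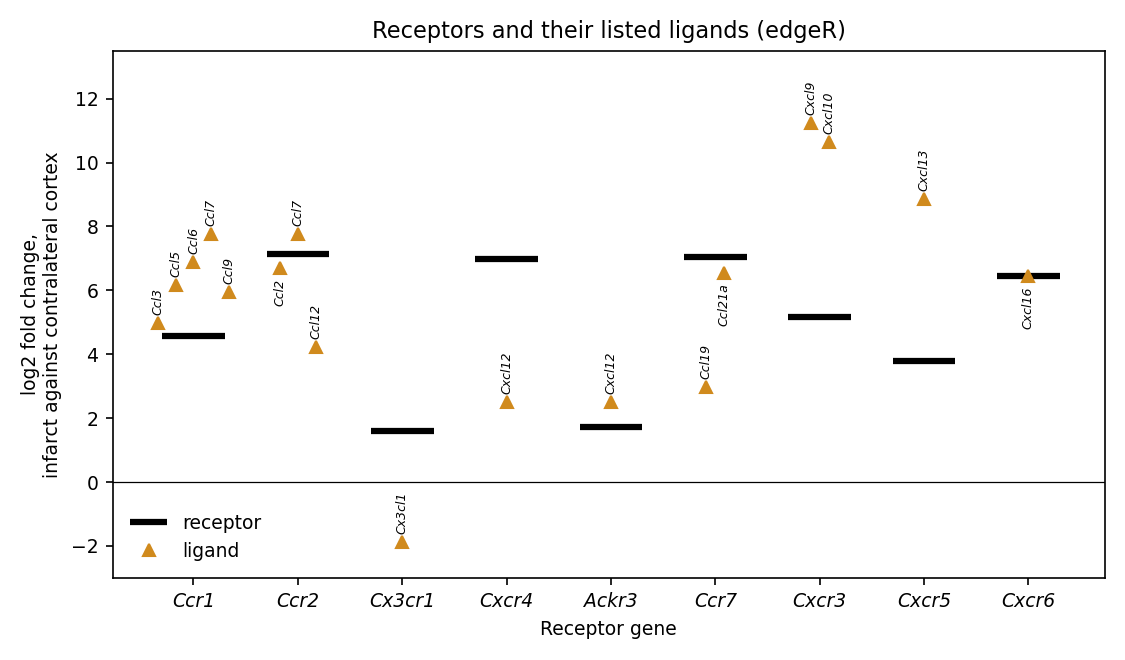
Fitted edgeR log2 fold changes, infarct against contralateral cortex, of each of the 9 receptors (black bars) and of its listed ligands that passed the filter (orange triangles), grouped by receptor. Ligands lie above 0 for every receptor except *Cx3cr1*, whose ligand *Cx3cl1* is at -1.89, and values of genes with 3 or fewer counts in each contralateral library depend on the prior count.

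Of 29 listed genes that act downstream of chemokine receptors, all passed the filter, with 15 upregulated (25.7% of all tested genes), 6 downregulated (20.9% of all tested genes) and 8 not called and a median log2 fold change of 1.01. The share of the list that was downregulated was thus near that of all genes. The largest changes were in *Rgs1*, which shortens Gi signaling in lymphocytes and macrophages, with 192, 578 and 323 counts in infarcts against 0, 6 and 0 in contralateral cortices (edgeR adjusted *p* = 1.37e-04). Its fitted log2 fold change was 7.56, or 11.55 without contralateral cortex 2 and 6.82 without contralateral cortex 1. *Rac2*, the hematopoietic Rac GTPase, rose by 5.41 on the log2 scale (SE 0.39, edgeR adjusted *p* = 4.11e-06). *Rgs18*, a regulator in platelets and myeloid cells, rose by 4.79 (SE 0.61, edgeR adjusted *p* = 1.10e-04), and by 6.38 without contralateral cortex 3. *Rgs1*, *Rac2* and *Rgs18* each had fewer than 10 counts in a contralateral library and passed the filter through the infarcts. Requiring at least 10 counts in every library left 26 of the 29 genes, with 12 upregulated and 6 downregulated. Of the 5 listed RGS genes 4 were upregulated, and of the 12 listed effector genes 8 were upregulated and 1 was downregulated.

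The Gi subunits went in different directions. *Gnai1*, the Gi subunit that is abundant in neurons, was at 112, 144 and 225 CPM in infarcts against 639, 707 and 742 CPM in contralateral cortices (log2 fold change -2.12, SE 0.25, edgeR adjusted *p* = 5.42e-05). *Gnai2* and *Gnai3*, Gi subunits used by leukocytes and chosen here after their values were seen, rose by 1.72 and 2.06 on the log2 scale (edgeR adjusted *p* of 2.77e-05 and 2.51e-06). *Gng2*, a gamma subunit, fell by 1.59 on the log2 scale (edgeR adjusted *p* = 1.19e-05). *Ptk2b*, a calcium-sensitive tyrosine kinase, fell by 1.36 (edgeR adjusted *p* = 0.00366), but in a test against a fold change of 2 its adjusted *p* was 0.111.

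Marker lists of the cells that carry these receptors were summed in each library. Beside the calls on all marker lists, 25.7% of all tested genes were upregulated and 20.9% were downregulated. Tested markers with fewer than 10 counts in a contralateral library passed the filter through the infarcts. A call of downregulated was hardly open to such markers. Microglial markers summed to 298 to 337 CPM in infarcts against 162 to 175 CPM in contralateral cortices, with 3 of 7 upregulated. Their log2 fold changes ranged from -0.20 to 2.87. *P2ry12*, a purine receptor of homeostatic microglia, was 15.2 ± 2.08% of that sum in infarcts and 33.6 ± 1.92% in contralateral cortices, and *Olfml3* was 20.8 ± 5.90% and 5.50 ± 1.27% of it (SD, n = 3 each). A percent of *Cx3cr1* in that sum would depend on which markers are listed, and none is given. Monocyte and macrophage markers summed to 5379 to 8897 CPM in infarcts against 61.4 to 75.1 CPM in contralateral cortices, with 7 of 8 upregulated. *Ccr2* was 2.12 ± 0.122% of that sum in infarcts and 1.58 ± 0.614% in contralateral cortices, the latter from few counts. *Ccr1* was 0.237 ± 0.0293% and 1.04 ± 0.757% of it, and *Cxcr4* was 0.677 ± 0.0592% and 0.557 ± 0.166%. This sum, too, was not made up alike in both regions. *Lyz2*, a lysozyme of myeloid cells, was 87.9 ± 1.26% of it in infarcts and 26.4 ± 5.46% in contralateral cortices (SD, n = 3 each), so these percentages set a receptor against a different mix of genes in each region.

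T cell markers summed to 167, 68.5 and 44.3 CPM in infarcts 1, 2 and 3 and to 2.5 to 3.57 CPM in contralateral cortices, with *Cd3d*, *Cd2* and *Cd8a* at 0 in the latter. Of the 8 listed, 7 passed the filter and 7 were upregulated. Among these 7 only *Lck* had at least 10 counts in every library, so the others could hardly be called downregulated. *Cxcr3* stood in the same order among infarcts, and was 5.86%, 5.35% and 3.85% of the T cell sum, against 4.41 ± 1.60% in contralateral cortices. *Cxcr6* was 11.7%, 22.1% and 17.5% of it in infarcts and 5.52 ± 1.64% in contralateral cortices. B cell markers summed to 269, 132 and 117 CPM in infarcts and to 2.14 to 3.81 CPM in contralateral cortices, and 6 of 6 were upregulated. Here only *Fcer2a* had at least 10 counts in every library, so the same limit applies to the other B cell markers. *Cxcr5* was 2.16%, 2.83% and 2.86% of the B cell sum in infarcts and 10.5 ± 1.94% in contralateral cortices, where both rest on few counts. *Lck* was 33.4 ± 3.63% of the T cell sum in infarcts and 88.8 ± 10.4% in contralateral cortices, and the leading gene of the B cell sum was *Ms4a1* in infarcts (54.5 ± 6.08%) and *Fcer2a* in contralateral cortices (57.1 ± 11.1%). Infarct 1 was thus the highest infarct for both lymphocyte sums and for *Ccr7*, *Cxcr3*, *Cxcr5* and *Cxcr6*. This was not particular to lymphocytes. *Ccr1*, *Ccr2* and *Cxcr4* were also highest in infarct 1 in CPM, while *Ackr3* and *Cx3cr1* were not. The monocyte and macrophage, plasma cell, natural killer cell, dendritic cell, neutrophil, endothelial, fibroblast and red blood cell sums were highest in infarct 1 too. So was the microglial sum, by little (337 CPM, against 333 CPM in infarct 3). Neuron markers were lowest in infarct 1.

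**Figure D5:**
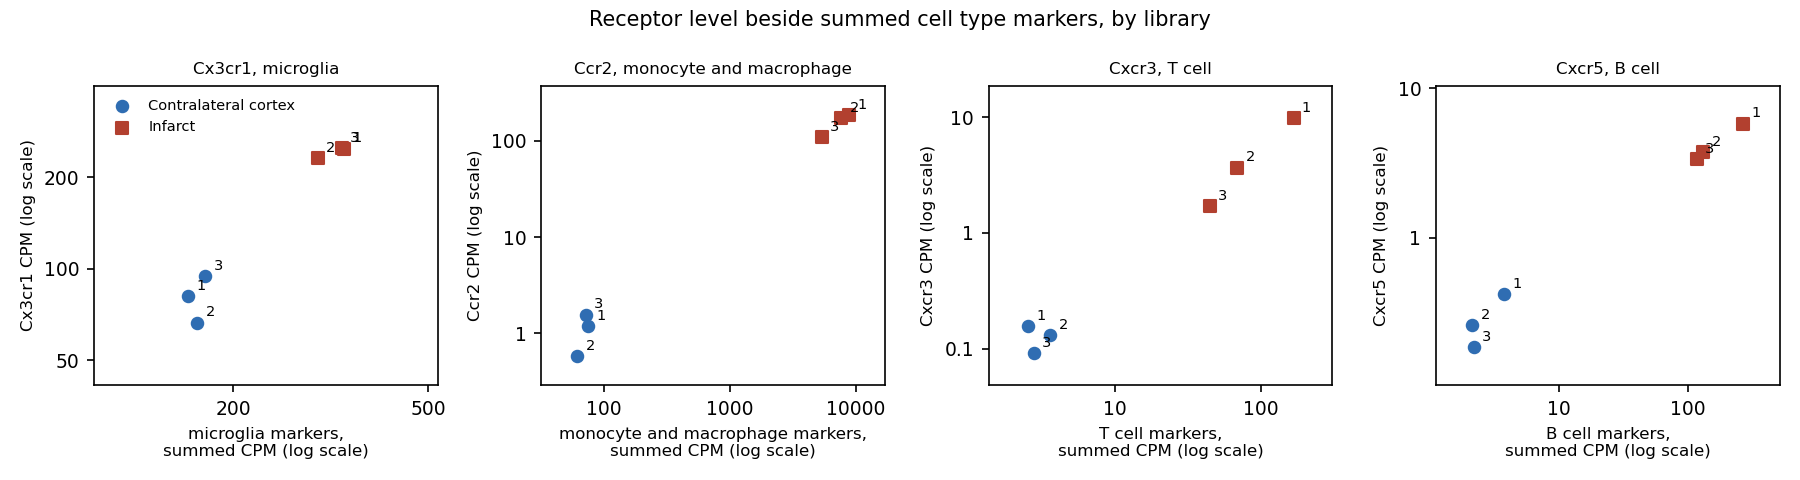
Level of *Cx3cr1*, *Ccr2*, *Cxcr3* and *Cxcr5* in CPM against the summed CPM of the marker list of a cell type that carries each, on log scales, with libraries numbered, infarcts as red squares and contralateral cortices as blue circles. In each panel the infarcts lie above and to the right of the contralateral cortices. Infarct 1 has the highest *Cxcr3* and *Cxcr5* beside the highest T cell and B cell sums, and also the highest *Ccr2* and monocyte and macrophage sum.

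Plasma cell markers summed to 2143, 846 and 254 CPM in infarcts 1, 2 and 3 and to 2.5 to 5.62 CPM in contralateral cortices, with 3 of 4 upregulated. Of these 3, *Mzb1* had fewer than 10 counts in each contralateral library. Natural killer cell markers summed to 20.6, 16.8 and 9.13 CPM in infarcts and to at most 0.0521 CPM in contralateral cortices, with 4 of 4 upregulated and *Klrb1c*, *Eomes* and *Klre1* at 0 in the latter. All 4 passed the filter through the infarcts, so a call of downregulated was hardly open to them. Neutrophil markers summed to 7.83 to 12.3 CPM in infarcts and at most 0.553 CPM in contralateral cortices. Of these 5 markers 2 were upregulated, *Ly6g*, *Mpo* and *Elane* did not pass the filter, and *Elane* was at 0 in every library. Endothelial markers (3 of 6 upregulated) summed to 285 to 395 CPM in infarcts against 193 to 214 CPM in contralateral cortices, and *Ackr3*, which venular endothelium carries among other cells, was 11.7% to 22.6% of that sum in infarcts and 7.37% to 9.78% of it in contralateral cortices, where *Flt1* made up 55.7 ± 1.41% of the sum (31.2 ± 2.28% in infarcts). Fibroblast and meningeal markers, at 4361 to 5280 CPM in infarcts against 37.4 to 67.4 CPM in contralateral cortices, were upregulated in 4 of 4 cases. Dendritic cell markers (3 upregulated and 1 downregulated of 6) summed to 351 to 534 CPM in infarcts and 129 to 179 CPM in contralateral cortices. *Itgax* was 79.0 ± 1.54% of that sum in infarcts, and *Fscn1* was 81.8 ± 3.51% of it in contralateral cortices. Astrocyte markers (1 upregulated and 1 downregulated of 4) summed to 3731 to 5595 CPM and 12463 to 13627 CPM. *Slc1a2*, which was downregulated, was 65.5 ± 3.86% and 94.8 ± 0.371% of that sum, while *Aqp4* was upregulated. Sums for choroid plexus were 14.8 to 23.6 CPM in infarcts and 6.31 to 7.15 CPM in contralateral cortices (2 of 4 upregulated). Those for red blood cells were 7.70 to 28.2 CPM and 0.845 to 4.01 CPM (2 of 3 upregulated). Those for skeletal muscle were 0.875 to 2.13 CPM and 9.10 to 11.4 CPM (1 of 4 downregulated). In contralateral cortices *Acta1* was 98.6 ± 0.925% of the skeletal muscle sum and *Kl* was 91.6 ± 2.94% of the choroid plexus sum. The part of each cell type in the receptor changes was not tested.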

How the data were processed

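Per the methods and the submitters' processing notes, the authors prepared stranded mRNA libraries, sequenced 75-base paired reads, demultiplexed them with bcl2fastq 2.19, trimmed with Trimmomatic 0.32, aligned to GRCm38 with STAR 2.5.2b and counted with htseq-count. The deposited values are raw counts per Ensembl gene without normalization. The annotation, version and strand setting of the counting are not given in the sources used here. The 5 entries that name no gene were left out. Genes held 65.7% to 73.4% of the tallied reads per library. Symbols, positions and exon lengths were taken from GENCODE M21, which held 45229 of the identifiers.

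These counts were fitted with edgeR 4.0.16 under R 4.3.3 (filterByExpr, TMM, glmQLFit with robust dispersions, glmQLFTest), with region as the only term in all 6 libraries, and the procedure was tested on simulated data. Standard errors were derived from the quasi-likelihood F statistic. Alternatives were DESeq2 1.42.0, limma 3.58.1 (voom), other scalings and filters, a test against a fold change of 2, a replicate block and leaving out each library. Pooled ratios have exact binomial intervals. The receptors, ligands, markers and named genes (all receptors and ligands, 3 signaling genes at each extreme, and the 2 genes nearest in pattern to each receptor) were chosen with earlier results of these data known. A few genes that these choices would include are not reported here and entered no count or sum over a list. Plots were drawn with matplotlib 3.10.9.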

Additional observations from a re-analysis of the deposited data

How the results depend on the processing

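Every call on the 9 receptors was kept in each alternative that gave a value, which was 14 alternatives for *Ackr3* and *Cx3cr1* and 13 for the others. Requiring at least 10 counts in every library left 2 receptors (*Ackr3* and *Cx3cr1*), both upregulated, because each of the other 7 has fewer in at least 1 contralateral library. It also left 1 of the other receptors called and 5 of the ligands called. Over all settings the highest edgeR adjusted *p* was 0.00517 for *Cxcr3*, 0.00255 for *Ackr3* and 0.00200 for *Cx3cr1*. Scaling by library totals moved the median over all genes, in log2 fold change, from 0.03 to 0.23, and gave 1.92 for *Ackr3* and 1.79 for *Cx3cr1*, and limma voom gave 6.31 for *Ccr7*. DESeq2 called 11 of the other receptors, 10 of them upregulated, as it tested more of the low genes.

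Same-numbered infarcts and contralateral cortices did not deviate together (correlations of -0.19, 0.10 and 0.0011), and no infarct correlated best with the library of its own number. With the replicate number as a block, 9 receptors were upregulated and the calls over all genes were 3945 upregulated and 3222 downregulated, beside 3999 and 3256 without it.

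Outside the receptors, *Cxcl9* lost its call with no filter on low counts (adjusted *p* = 0.0556) and *Ptk2b* in the test against a fold change of 2 (adjusted *p* = 0.111). With 3 libraries per region no exact permutation *p* below 0.1 was possible, and leaving out a library raised this to 0.2. Contralateral counts of 3 or fewer limit the folds of *Ccr7*, *Cxcr3* and *Cxcr6*.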

Other observations

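For each receptor, the protein-coding genes most like it in pattern were found by the root-mean-square difference of log2 CPM (prior count 2, centered per gene) over the 6 libraries. Those nearest to *Cx3cr1* were *Rgs10* and *Nek6* (0.0623 and 0.0655), the nearest to *Ackr3* was *Aspa* (0.0979), and those nearest to *Cxcr4* were *Pirb* and *C3ar1* (0.116 and 0.146). For *Ccr2* they were *Ccl6* and *Lum* (0.230 and 0.233), and for *Ccr1* they were *Evi2* and *Fam83f* (0.234 and 0.236). For *Cxcr3* they were *Irf4* and *Ubash3a* (0.106 and 0.165), for *Cxcr6* they were *Klrb1c* and *Itgal* (0.0913 and 0.152), for *Cxcr5* they were *Adamts9* and *P2rx4* (0.0946 and 0.140), and for *Ccr7* they were *Cxcr2* and *Ccl5* (0.0629 and 0.145). The prior count damps the differences of genes with few counts, and the order describes these 6 libraries only.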
